A study of Danio rerio with 7 samples.

Results

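The genes described are 4 organ markers of the larval zebrafish: fabp10a (ENSDARG00000038439) and tfa (ENSDARG00000016771) for the liver, fabp2 (ENSDARG00000006427) for the intestine and ins (ENSDARG00000035350) for the pancreatic islet. They were chosen by their known organ, by identifier, from the 25049 genes of the count table, with earlier results of these data known. Each of the 4 passed the filter on low counts that left 23716 genes for testing. All 4 were lower in hypoxia larvae than in normoxia larvae, to 57.6% of the normoxia mean for fabp10a, 49.7% for fabp2, 41.5% for ins and 39.6% for tfa.

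Poly(A) RNA-seq was carried out on the whole body of wild-type zebrafish larvae. The normoxia group (20.9% O2, the atmospheric level) had 4 libraries and the hypoxia group (6% O2) had 3, both held at their O2 level from 81 to 96 hpf (hours after fertilization). Each library was a pool of 30 larvae, so the spread between libraries is a spread between pools and not between single larvae. The organs were not dissected. The liver, the gut and the islet therefore contribute a part of the RNA of each pool, and in such bulk samples fewer cells of a type cannot be told apart from less of the RNA per cell.

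Per library, 70275114 to 78235938 counts were assigned to genes in normoxia and 67083058 to 69920400 in hypoxia. Levels are given as CPM, the usual count corrected for depth, taken here over the TMM-scaled library size, where TMM is a scaling that aligns the bulk of genes between libraries. The scaling factor lay between 1.018 and 1.036 for the normoxia libraries and between 0.9513 and 0.9768 for the hypoxia libraries. Taken as the floor of detection, 3 counts correspond to at most 0.04128 CPM in normoxia and 0.04702 CPM in hypoxia. The floor and any counting error given here cover counting error only. Hypoxia was tested against normoxia by the quasi-likelihood method of edgeR, with p-values adjusted over all tested genes by the Benjamini-Hochberg method. A gene was called when the adjusted p was under 0.05 and the log2 fold change was beyond 0.6 in either direction. By this rule 7.45% of the tested genes were called lower in hypoxia and 3.07% were called higher. Normoxia replicate 1 was high in the exocrine pancreas, liver and yolk syncytial layer lists described here, with 140%, 123% and 123% of the normoxia mean. It had 109% for the enterocyte list and 94.9%, the lowest of the group, for the islet list. Without it the 4 markers were still called, with log2 fold changes of -0.80 for fabp10a, -1.27 for tfa, -1.01 for fabp2 and -1.08 for ins, and the calls were 10 of 12 in the liver list and unchanged in number in the other lists (4 enterocyte, 1 islet, 9 exocrine, 3 yolk syncytial layer). Without normoxia replicate 1, 1502 of 23578 tested genes were called lower, beside 1766 of 23716 with all 7 libraries. CPM is not adjusted for transcript length, so levels are compared between groups and never between genes.

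In zebrafish the liver, the gut and the pancreas all form from the endoderm. At the larval stage studied the embryo is using up its yolk, which reaches the body through the yolk syncytial layer, and the gut is becoming able to absorb food. Hepatocytes make most of the plasma proteins, enterocytes take up fat and peptides, and the beta cells of the islet release insulin. The islet lies within the exocrine pancreas, whose acinar cells make the digestive enzymes. Fabp10a and fabp2 encode the fatty acid binding proteins of the liver and of the intestine, small carriers of lipid in the cytoplasm, and their promoters are widely used in zebrafish to mark hepatocytes and enterocytes. Tfa encodes transferrin, the iron carrier of the plasma, and ins encodes insulin, the hormone that lowers blood glucose.

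The liver was examined first. Fabp10a had 60.3, 58.0, 66.2 and 60.2 CPM in normoxia replicates 1 to 4 and 42.3, 37.4 and 26.0 CPM in hypoxia replicates 1 to 3. The groups did not overlap, and the lowest normoxia library was 1.37 times the highest hypoxia library. The 4 normoxia pools averaged 61.2 ± 3.52 CPM (SD, n = 4). The 3 hypoxia pools averaged 35.2 ± 8.36 CPM (SD, n = 3), a 1.74-fold lower level. The log2 fold change of fabp10a was -0.80 (SE 0.129, adjusted p = 0.00058 by edgeR's quasi-likelihood test). These values rest on 4380 to 4947 counts per library in normoxia and 1747 to 2852 in hypoxia. Of all tested genes, 4.5% had a log2 fold change as low as that of fabp10a or lower.

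Tfa, the transferrin gene, had 729, 587, 642 and 597 CPM in the normoxia replicates and 419, 214 and 126 CPM in the hypoxia replicates. Here too every hypoxia library was below every normoxia library, but hypoxia replicate 1 kept 65.6% of the normoxia mean and hypoxia replicate 3 kept 19.8%. Normoxia averaged 639 ± 64.6 CPM (SD, n = 4), and hypoxia, with 253 ± 150 CPM (SD, n = 3), was 2.53-fold lower. The log2 fold change of tfa was -1.34 (SE 0.302, adjusted p = 0.0039 by edgeR's quasi-likelihood test), and 0.911% of all tested genes were as low or lower. The size of the fold depended on the pool: it was 3.76 without hypoxia replicate 1 and 2.03 without hypoxia replicate 3.

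**Figure D1:**
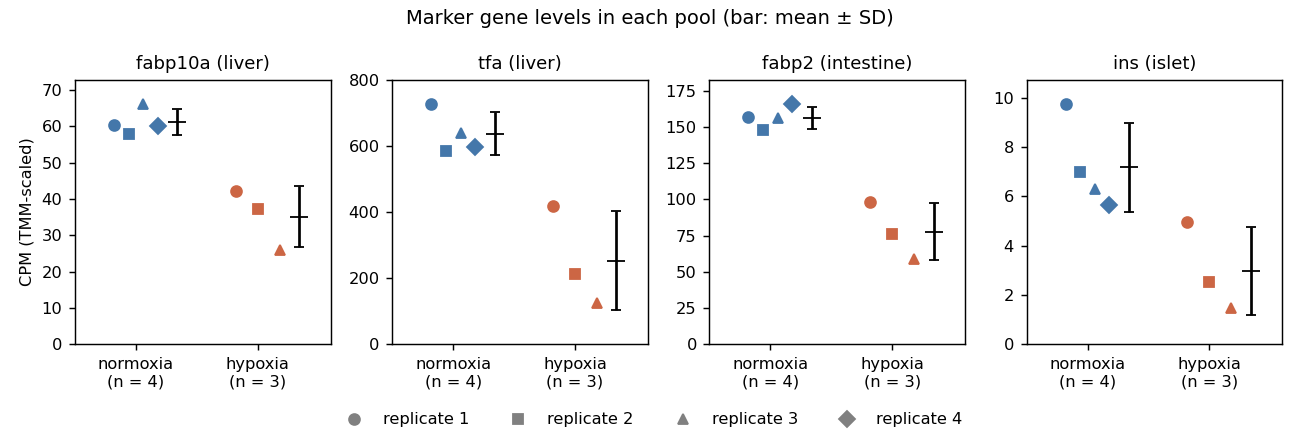
CPM (TMM-scaled, linear axes from 0) of fabp10a, tfa, fabp2 and ins in each pool, with normoxia in blue and hypoxia in orange; symbols give the replicate number, and the bar beside each group is the mean ± SD (n = 4 normoxia, n = 3 hypoxia). Every hypoxia pool lies below every normoxia pool for all 4 genes, which held for 26.5% of all tested genes. Hypoxia replicate 3 is the lowest pool of each, at 26.0 CPM for fabp10a, 126 for tfa, 59.0 for fabp2 and 1.46 for ins.

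Other liver genes were lower as well. Of 12 tested genes of a list of hepatocyte products, 11 were called lower and 0 higher, beside 7.45% and 3.07% of all tested genes. The median log2 fold change of the 12 was -0.90, beside -0.0044 over all tested genes. The apolipoprotein genes apoa2 (ENSDARG00000015866) and apoa1b (ENSDARG00000101324), which encode proteins of the plasma lipid particles, fell from 930 ± 206 to 381 ± 157 CPM and from 1380 ± 228 to 771 ± 240 CPM. Their log2 fold changes were -1.29 (SE 0.245) and -0.84 (SE 0.184). The fibrinogen chain genes fgb (ENSDARG00000008969) and fga (ENSDARG00000020741), whose products form the blood clot, fell from 58.3 ± 8.40 to 34.3 ± 11.5 CPM and from 83.9 ± 9.16 to 50.9 ± 14.9 CPM. Without hypoxia replicate 3 the list had 8 calls, and fgb, fga and the ceruloplasmin gene cp were no longer among them. In that fit 1271 of 23970 tested genes were called lower, beside 1766 of 23716 with all 7 libraries. The tested gene of the list that was not called was ttr, which encodes the thyroid hormone carrier transthyretin, with 8.24 ± 0.762 CPM in normoxia and 7.0 ± 1.81 CPM in hypoxia (adjusted p = 0.22 by edgeR). A further listed gene, hp (haptoglobin), had at most 16 counts in any library and was not tested.

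Transferrin and apolipoprotein RNA is also made by the yolk syncytial layer, the nucleated cell layer around the yolk, which is present in the whole body at this stage. Of 4 genes listed for that layer, all tested, 3 were called lower: apoc1 (ENSDARG00000092170, 244 ± 49.4 against 107 ± 37.6 CPM), apoeb (ENSDARG00000040295, 311 ± 41.3 against 189 ± 24.5 CPM) and apobb.1 (ENSDARG00000022767, 513 ± 104 against 164 ± 68.2 CPM). The fourth, mttp, the transfer protein that loads lipid onto apolipoprotein B, had 68.2 ± 5.79 CPM in normoxia and 45.7 ± 13.5 CPM in hypoxia, with a log2 fold change of -0.58 that did not reach the fold threshold. Over all tested genes the share called lower was 7.45%. The summed level of the 4 genes was 978 to 1400 CPM in normoxia and 381 to 661 CPM in hypoxia, and none of the 4 was near 0 in any library. The 4 genes need not mark the layer alone. Mttp is also in the enterocyte list, and the liver list holds other apolipoprotein genes. The levels of the 4 genes thus do not by themselves show the state of the layer. The part of these genes in the difference of tfa was not tested.

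For the intestine, fabp2 had 157, 148, 156 and 166 CPM in normoxia replicates 1 to 4 and 98.5, 76.0 and 59.0 CPM in hypoxia replicates 1 to 3. The normoxia pools lay close together, and the lowest of them was 1.5 times the highest hypoxia pool, the widest gap of the 4 markers. Normoxia averaged 156 ± 7.68 CPM (SD, n = 4), and hypoxia, with 77.8 ± 19.8 CPM (SD, n = 3), was 2.01-fold lower. The log2 fold change of fabp2 was -1.01 (SE 0.132, adjusted p = 0.00019 by edgeR's quasi-likelihood test), and 2.28% of all tested genes were as low or lower. In the RefSeq annotation of a later assembly, GRCz12tu, a protein-coding gene overlaps fabp2, and its reads could have been counted with those of fabp2 or lost from them. No overlapping gene was found there for fabp10a, tfa or ins.

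Enterocyte genes other than fabp2 were lower too. Of the 5 listed enterocyte genes that could be matched to a single identifier, all tested, 4 were called lower and 0 higher, with a median log2 fold change of -0.80. Over all tested genes 7.45% were called lower and 3.07% higher. Apoa4b.1 (ENSDARG00000040298), an apolipoprotein gene of fat absorption, had the lowest log2 fold change of the 5, -1.39 (SE 0.169), and fell from 189 ± 22.6 to 72.0 ± 22.4 CPM. Vil1 (ENSDARG00000040466), which encodes the microvillus protein villin, fell from 155 ± 14.2 to 88.9 ± 31.6 CPM, a log2 fold change of -0.80 (SE 0.179). The chitinase gene chia.2 (ENSDARG00000099185) fell from 47.3 ± 6.43 to 25.5 ± 6.19 CPM, and cubn (ENSDARG00000087013), the uptake receptor cubilin, fell from 11.7 ± 1.49 to 7.01 ± 1.71 CPM. Cubilin is also a receptor of the kidney tubule, and the fifth gene, mttp, is the one also listed for the yolk syncytial layer. The summed level of the 5 was 412 to 513 CPM in normoxia and 179 to 323 CPM in hypoxia.

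For the islet, ins had 9.75, 6.99, 6.30 and 5.67 CPM in the normoxia replicates and 4.96, 2.52 and 1.46 CPM in the hypoxia replicates. The groups did not overlap, but the gap was the narrowest of the 4 markers, with the lowest normoxia pool 1.14 times the highest hypoxia pool. The normoxia pools already differed among themselves by 1.72 times and the hypoxia pools by 3.4 times. Normoxia averaged 7.18 ± 1.80 CPM (SD, n = 4), and hypoxia, with 2.98 ± 1.79 CPM (SD, n = 3), was 2.40-fold lower. The log2 fold change of ins was -1.27 (SE 0.321, adjusted p = 0.0075 by edgeR's quasi-likelihood test), and 1.12% of all tested genes were as low or lower. Ins is the marker with the fewest counts, 455 to 709 per library in normoxia and 98 to 334 in hypoxia. Without hypoxia replicate 1 the fold was 3.61, and without hypoxia replicate 3 it was 1.91.

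Of 7 further tested genes of an islet list, 1 was called lower and 0 higher, beside 7.45% and 3.07% of all tested genes. At an adjusted p under 0.05 by edgeR, without the fold threshold, 1 of the 7 was lower and 4 were higher. The share of all tested genes under this looser rule was not counted, so these counts have no background beside them. The median log2 fold change of the list, 0.24, falls among 4 genes that neurons express as well and that are described after the others. The gene called was gcga (ENSDARG00000079296), which encodes glucagon, the hormone that raises blood glucose, and it fell from 3.30 ± 0.417 to 1.87 ± 0.650 CPM, a log2 fold change of -0.82 (SE 0.195, adjusted p = 0.0054 by edgeR). The somatostatin gene sst2 (ENSDARG00000014190) had 0.991, 0.633, 1.02 and 1.08 CPM in normoxia and 0.846, 0.251 and 0.119 CPM in hypoxia. Its groups overlapped, and its log2 fold change of -1.19 (SE 0.462) had an adjusted p of 0.052 with edgeR, from 8 to 87 counts per library. Sst2 had an adjusted p of 0.022 with DESeq2 and of 0.00036 with edgeR without hypoxia replicate 1, the highest hypoxia pool. Over the alternatives that ask whether the log2 fold change differs from 0, it ranged from 0.00036 to 0.18 (edgeR without hypoxia replicate 2). An edgeR test that asks whether the log2 fold change exceeds 0.6 in size gave an adjusted p of 0.9. Pdx1, a transcription factor of beta cells and of the pancreatic and duodenal epithelium, had 2.84 ± 0.277 CPM in normoxia and 2.27 ± 0.855 CPM in hypoxia (adjusted p = 0.23 by edgeR). The log2 fold changes of gcga, sst2 and pdx1 were below 0 in all 17 settings, the alternatives included, though pdx1 came as near to 0 as -0.063. Those of the other 4 genes of the list were above 0 in all 17. Some settings share a fit, so the 17 are not separate fits.

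The prohormone convertase genes pcsk1 (ENSDARG00000002600) and pcsk2 (ENSDARG00000019451), whose products cut hormone precursors such as proinsulin, lay on the other side. Pcsk1 had 28.0 ± 1.89 CPM in normoxia and 41.7 ± 4.01 CPM in hypoxia, and pcsk2 had 26.0 ± 1.29 and 32.9 ± 1.23 CPM. Their log2 fold changes, 0.57 and 0.34, were under the fold threshold, with adjusted p of 0.00015 and 0.00048 by edgeR. The neuronal and endocrine transcription factor gene neurod1 and the secretogranin gene scg3 had log2 fold changes of 0.24 and 0.35. Their adjusted p by edgeR was 0.0036 and 0.00021, and they too were under the fold threshold and not called. Neurons express pcsk1, pcsk2, neurod1 and scg3 as well, so in whole larvae these genes do not mark the islet alone. Cubn, mttp, pdx1 and the apolipoprotein genes of the liver list also have a second tissue, and other list genes may have one too. All of these genes were kept in the counts of their lists. The summed level of the 7 islet list genes was 322 to 349 CPM in normoxia and 398 to 445 CPM in hypoxia. It is set mostly by pcsk1, pcsk2, neurod1 and scg3.

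The exocrine pancreas, the tissue around the islet, was described by 9 tested genes, and all 9 were called lower with groups that did not overlap. Of all tested genes, 7.45% were called lower and 26.5% had every hypoxia library below every normoxia library. The median log2 fold change of the 9 was -1.64, and the values ranged from -2.13 to -1.33. The trypsin gene prss1 (ENSDARG00000042993) fell from 158 ± 39.9 to 52.4 ± 30.2 CPM and the chymotrypsin gene ctrb.1 (ENSDARG00000090428) from 101 ± 33.3 to 32.3 ± 22.7 CPM. The trypsin-like genes prss59.1 (ENSDARG00000079274) and prss59.2 (ENSDARG00000073742) fell from 91.9 ± 25.6 to 21.0 ± 14.6 CPM and from 200 ± 55.2 to 68.4 ± 46.1 CPM. They are close copies, and how reads were divided between them is uncertain. The summed level of the 9 genes was 562 to 985 CPM in normoxia and 97.2 to 381 CPM in hypoxia, and hypoxia replicate 3 had 13.8% of the normoxia mean. Whether the ins difference has a part in common with the lower level of exocrine RNA was not tested.

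**Figure D2:**
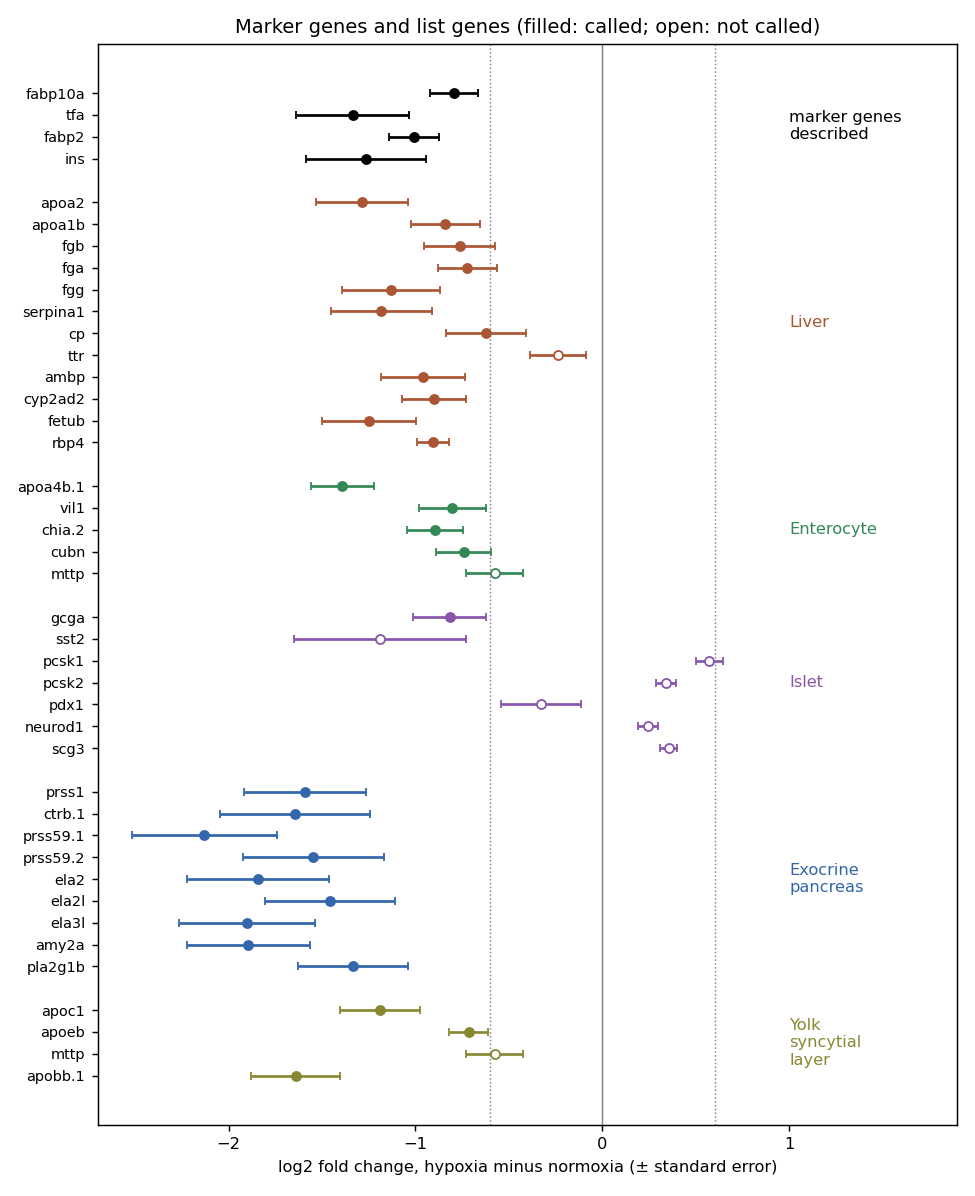
Log2 fold change (hypoxia minus normoxia) ± standard error from edgeR for the 4 marker genes and the tested genes of the 5 lists; filled points were called, open points were not, and dotted lines mark the fold threshold of 0.6. The 4 markers range from -1.34 (tfa) to -0.80 (fabp10a), the 9 exocrine genes all lie at or below -1.33, and the islet list lies on both sides of 0, from -1.19 (sst2) to 0.57 (pcsk1).

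Of the 4 markers, 4 were called lower and 0 higher, where 7.45% of all tested genes were called lower and 3.07% higher. All 4 had every hypoxia library below every normoxia library, which held for 26.5% of all tested genes. The 4 genes stayed called when each of the 7 libraries was left out in turn, with the adjusted p by edgeR between 6.2e-06 (fabp2) and 0.039 (ins). The fold threshold was also placed inside the test (glmTreat), which asks whether a log2 fold change exceeds 0.6 rather than 0. By it 0 of the 4 were called, with adjusted p of 0.52 for fabp10a, 0.19 for tfa, 0.069 for fabp2 and 0.31 for ins. The unadjusted p of glmTreat was under 0.05 for 4 of the 4. The share of all tested genes at that level was not counted, so it cannot be read as support. Under that stricter test 167 of all tested genes were called lower and 133 higher.

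Whether one organ marker was lowered more than another was asked with the ratio of 2 markers within each library, which does not depend on the scaling of the libraries. The 6 ratios were compared between the groups by an exact two-sided permutation test over the 7 libraries, whose smallest possible p is 0.0286. The log2 ratio of fabp10a to tfa, both liver genes, averaged -3.38 ± 0.146 (SD) over the normoxia libraries and -2.7 ± 0.539 (SD) over the hypoxia libraries, a difference of 0.68 (exact p = 0.0571, adjusted over the 6 ratios 0.171). Hypoxia replicate 1, at -3.31, lay among the normoxia libraries, while hypoxia replicates 2 and 3 were at -2.52 and -2.28. The log2 ratio of fabp10a to fabp2 averaged -1.36 ± 0.097 (SD) and -1.14 ± 0.104 (SD) in the same order, a difference of 0.22 with the same exact p and with groups that did not overlap.

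The remaining ratios overlapped between the groups. The difference was 0.59 for fabp10a to ins and -0.47 for tfa to fabp2 (exact p = 0.171 for both), and 0.38 for fabp2 to ins (exact p = 0.314). The ratio of tfa to ins differed by -0.09 (exact p = 0.486). In hypoxia its log2 values were 6.40, 6.40 and 6.43, an SD of 0.016, although tfa and ins each varied more than 3-fold between these pools. In normoxia they ranged from 6.22 to 6.72. The hypoxia values lie closer together than the counting error of ins alone, 7.11% in hypoxia, would give. They cannot be read as a tight link of tfa and ins. None of the 6 ratios passed at an adjusted p under 0.05. A single ratio could not have passed, as even the smallest possible exact p, 0.0286, exceeds 0.05 when adjusted alone over the 6. The lack of a pass, with 4 libraries against 3, does not show that the markers were lowered equally. The differences stated are the sizes these data give.

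**Figure D3:**
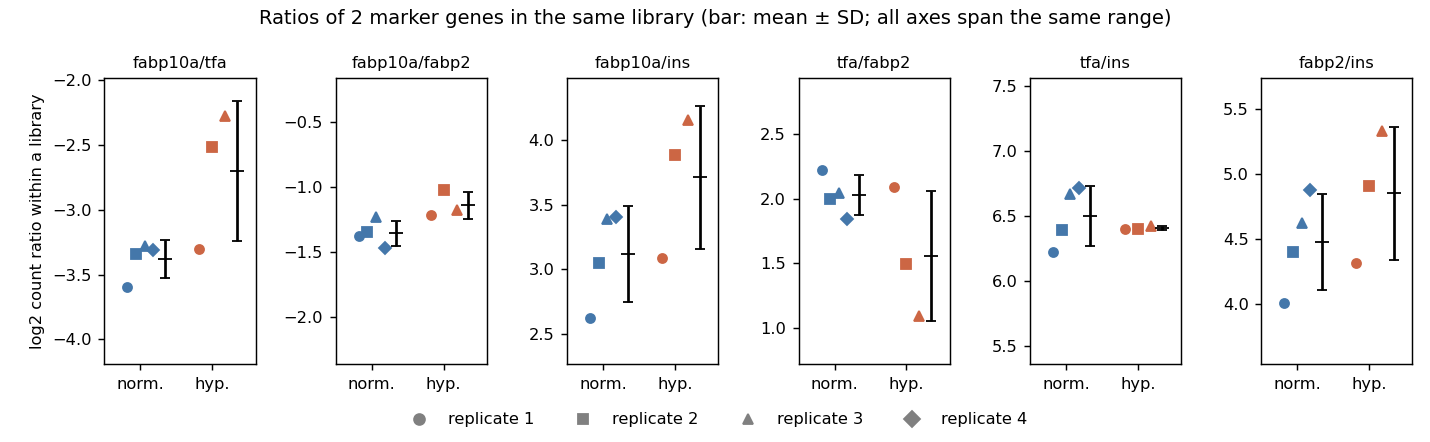
Log2 count ratio of each pair of marker genes within a library, by group, with the replicate number as the symbol and the mean ± SD as the bar; all 6 axes span the same range. The 3 hypoxia libraries of tfa/ins lie within 6.40 to 6.43, closer together than the counting error of ins alone would give. Those of fabp10a/tfa spread from -3.31 to -2.28.

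The spread between pools relative to the mean was wider in hypoxia for each marker, while the SD of ins was 1.80 CPM in normoxia and 1.79 CPM in hypoxia. The coefficient of variation of fabp10a was 5.75% in normoxia and 23.7% in hypoxia, and that of fabp2 was 4.91% and 25.5%. Tfa and ins varied more, with 10.1% and 59.4% for tfa and 25.1% and 60.1% for ins. Counting error alone would give 0.772% for tfa and 7.11% for ins in hypoxia, below the spread observed. Over the 15060 tested genes with a mean of at least 5 CPM the median coefficient of variation was 5.0% in normoxia and 5.57% in hypoxia. The difference in spread between the groups was not tested.

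The hypoxia pools stood in the same order for all 4 markers, with replicate 1 highest and replicate 3 lowest. As a share of the normoxia mean, hypoxia replicates 1, 2 and 3 had 69.2%, 61.1% and 42.5% for fabp10a, 65.6%, 33.5% and 19.8% for tfa, 63.0%, 48.5% and 37.7% for fabp2, and 69.0%, 35.2% and 20.3% for ins. Hypoxia replicate 1 was thus nearly alike for the 4 genes, and the genes parted in replicates 2 and 3. The same order held for 11 of 12 liver list genes, 5 of 5 enterocyte genes, 8 of 9 exocrine genes, 4 of 4 yolk syncytial layer genes and 3 of 7 islet list genes. It held for 24.5% of all tested genes and for 64.2% of the genes called lower, which share these libraries with the markers. Total counts did not follow this order, being 69006430, 67083058 and 69920400 in hypoxia replicates 1 to 3.

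**Figure D4:**
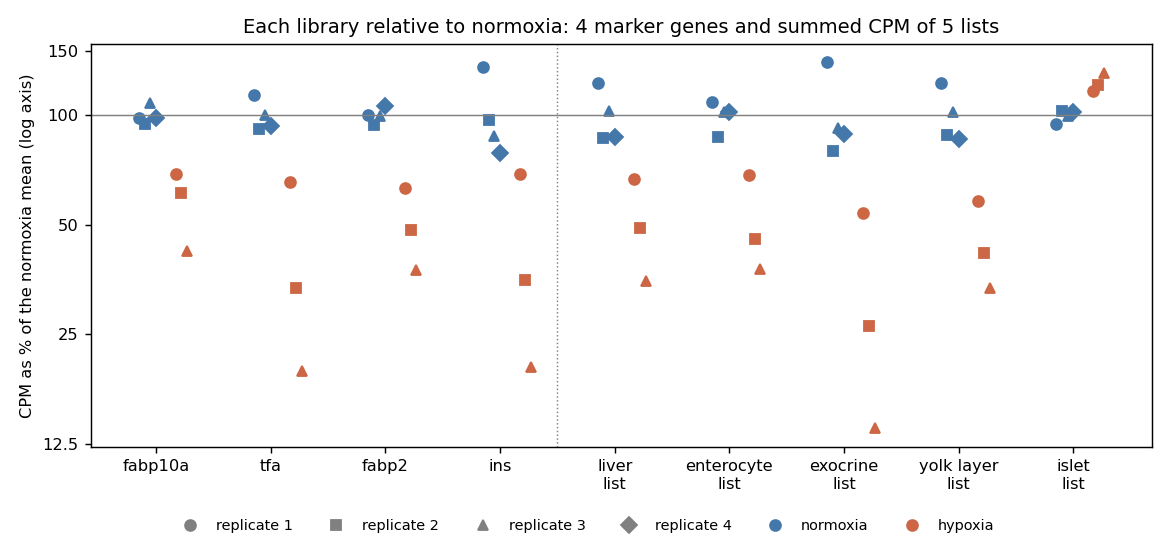
CPM of each library as a percent of the normoxia mean (log axis) for the 4 marker genes (left) and for the summed CPM of the 5 lists (right), with normoxia in blue, hypoxia in orange and the replicate number as the symbol. Hypoxia replicates 1 to 3 run from 69.2% to 42.5% for fabp10a and from 65.6% to 19.8% for tfa, from 54.0% to 13.8% for the exocrine list, and from 117% to 131% for the islet list.

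For each marker the gene with the most similar profile was sought among the 11828 tested genes with a mean of at least 10 CPM, by Pearson's r of log2 CPM over the 7 libraries. The libraries fall into 2 groups, so r is given as a description, along with its value after the group means were removed. Fabp10a was nearest to UTP15 (ENSDARG00000002720, r = 0.9944, 0.972 within groups), a gene whose yeast and human counterparts act in ribosomal RNA processing. Tfa was nearest to PYGL (ENSDARG00000002197, r = 0.9977, 0.998 within groups), the liver glycogen phosphorylase gene in human, which fell from 71.3 ± 4.48 to 38.8 ± 17.3 CPM with a log2 fold change of -0.88 (SE 0.219). Fabp2 was nearest to keap1a (ENSDARG00000016132, r = 0.9986, 0.994 within groups), which encodes a sensor of oxidative stress. Ins was nearest to ENSDARG00000112287 (r = 0.9952, 0.987 within groups), which has no symbol in the reference and fell with a log2 fold change of -0.95 (SE 0.25). The log2 fold changes of UTP15 and keap1a were -0.40 and -0.30, both under the fold threshold. First places were close: the second gene had r = 0.993 for fabp10a, 0.9976 for tfa, 0.9985 for fabp2 and 0.9931 for ins. Each nearest gene was the highest among many over 7 libraries, and its r within groups comes from the same values.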

How the data were processed

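The authors trimmed reads with Trimmomatic 0.39, checked them with FastQC 0.12.1, aligned them to GRCz11 with STAR 2.7.10 and deposited whole-number counts per Ensembl gene from featureCounts 2.0.7, without normalization. The strand setting and the treatment of reads with several matches are not given in the sources used here. The treatment labels of the samples gave the groups, their titles gave the replicate numbers, and all 7 columns were used.

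The tests used edgeR 4.0.16 under R 4.3.3, with filterByExpr, TMM scaling and the functions glmQLFit and glmQLFTest. Standard errors were derived by dividing each log2 fold change by the root of its F statistic. Ratios used log2 of counts plus 0.5, and profiles used log2 CPM with a prior count of 2. Chi-square per degree of freedom lay between 7.04 and 20.9 in the 9 pairs of same-group libraries, above sampling noise. The functions were tested on simulated counts.

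Marker genes and lists were chosen with earlier results of these data known, and they are not independent evidence of a direction. The genes named are the 4 markers, the first 4 tested genes of each list in list order, and for each marker the gene with the most similar profile. Other list genes that are named (cp, ttr, hp, pdx1, neurod1, scg3, rbp4) were chosen after their values were seen. A symbol was found for 23250 of the 25049 identifiers. By symbol or RefSeq synonym, 13 of 15 liver, 5 of 10 enterocyte, 7 of 10 islet, 9 of 14 exocrine and 4 of 4 yolk syncytial layer entries were matched to a single identifier and kept, of which 5, 3, 4, 1 and 1 are written in capitals in the reference. The exocrine entries try and prss1 matched the same gene, which was kept once. The entries lct and cpa1, each with several identifiers, were left out. RefSeq (GRCz12tu) was used only for names and overlapping genes. Alternatives were DESeq2 1.42.0, its size factors, library size only, cyclic loess with limma 3.58.1, no count filter, stricter fold thresholds, a block for replicate number, and omission of each library. Transcript lengths and sequences were not used here.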

Additional observations from a re-analysis of the deposited data

Results flagged for a closer look

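The trypsin-like gene prss59.2 had 282 CPM in normoxia replicate 1 and 163, 180 and 175 CPM in normoxia replicates 2 to 4. The gap between replicate 1 and the nearest of the others was 0.859 of the whole range of the group, past Dixon's limit for 4 samples. Of 35 values checked in the normoxia group this was the 1 past the limit, where chance gives about 1.75. The same library was the highest of the normoxia libraries for prss59.1, ctrb.1, prss1 and the summed exocrine list, with gaps of 0.819, 0.817, 0.783 and 0.792 of the range, just under the limit. Normoxia replicate 1 held 985 CPM of the exocrine list, 140% of the normoxia mean, where the other normoxia libraries held 562 to 650 CPM. It held 123% of the normoxia mean for the liver list and 123% for the yolk syncytial layer list. These genes share the library and are not separate observations.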

How the results depend on the processing

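The log2 fold changes of the 4 markers were below 0 under every alternative run. Leaving out each library gave -0.95 to -0.62 for fabp10a, -1.91 to -1.02 for tfa, -1.21 to -0.85 for fabp2 and -1.85 to -0.94 for ins, all still called. The lowest of each was without hypoxia replicate 1 and the highest without hypoxia replicate 3. With the threshold of 0.6 inside the test, fabp10a (-0.80), tfa (-1.34), fabp2 (-1.01) and ins (-1.27) lost their calls, 0 of the 4 were called, and the lists had 1 (liver), 1 (enterocyte), 0 (islet), 2 (exocrine) and 1 (yolk syncytial layer) calls. That test called 167 of 23716 tested genes lower. With a log2 threshold of 1, fabp10a (-0.80) was not called and 3 of the 4 markers were. The lists then had 4 (liver), 1 (enterocyte), 0 (islet), 9 (exocrine) and 2 (yolk syncytial layer) calls, with 513 lower and 172 higher over all tested genes. The islet list had 2 calls, gcga and sst2, with DESeq2, library size only, loess with limma and the replicate block, and 1 to 2 when each library was left out. Over all tested genes, 1708 of 25041 were called lower with DESeq2, 1649 of 23716 with loess and limma, and 1873 of 23571 with the block. When each library was left out, 1271 to 2266 of all tested genes were called lower. Library size only moved the median of all tested genes to -0.10 and gave 2484 lower and 427 higher, with 14.7% of calls higher in place of 29.2%. Over all alternatives the adjusted p by edgeR, DESeq2 or limma ranged from 7e-10 to 0.52 for fabp10a, 1.8e-05 to 0.19 for tfa, 2.1e-07 to 0.069 for fabp2 and 1e-04 to 0.31 for ins. The upper ends come from the threshold inside the test, which asks about 0.6 and not 0. Among the alternatives that ask about 0, the highest adjusted p by edgeR came without hypoxia replicate 2. It was 0.0033 for fabp10a, 0.024 for tfa, 0.002 for fabp2 and 0.039 for ins.

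Whether equal replicate numbers pair the libraries is not stated in the sources used here. Same-numbered libraries deviated together by correlations of 0.19, 0.052 and 0.0211. Libraries of unlike number were not compared, so these values cannot decide it. The block fit leaves out normoxia replicate 4, which has no partner. With the replicate block the log2 fold changes were -0.83 (fabp10a), -1.53 (tfa), -1.01 (fabp2) and -1.46 (ins), the islet list had 2 calls, and 1873 genes were lower and 827 higher, beside 1827 and 817 for the same 6 libraries without the block. No other call of a marker or list count changed beyond 1.5 times with the block. The adjusted p by edgeR with the block was 0.00046 (fabp10a), 0.00026 (tfa), 6e-05 (fabp2) and 1e-04 (ins). For the same 6 libraries without the block it was 0.0017, 0.008, 7e-04 and 0.0091 in that order. The ratio tests cannot reach 0.05 once any library is left out. Their differences then ranged from 0.47 to 0.985 (fabp10a to tfa), 0.156 to 0.256 (fabp10a to fabp2), 0.37 to 0.898 (fabp10a to ins), -0.731 to -0.235 (tfa to fabp2), -0.184 to -0.019 (tfa to ins) and 0.135 to 0.644 (fabp2 to ins). The ends were set by hypoxia replicates 1 and 3, except for fabp10a to fabp2 (hypoxia replicate 2, normoxia replicate 3) and tfa to ins (normoxia replicates 1 and 4). Haptoglobin (hp) was too shallow to test. Levels per kilobase and promoter letters were not run.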

Other observations

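Rbp4, the retinol carrier gene of the liver list, was chosen after its values were seen. It had 497, 389, 417 and 400 CPM in normoxia and 243, 233 and 207 CPM in hypoxia. Its log2 fold change was -0.91 with a standard error of 0.0859, and its adjusted p by edgeR was 3.5e-05.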
